A study of Mus musculus with 7 samples.

Results

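The cells described here are myeloid cells of the mouse aorta that carry MHC class II together with Ccr2, the receptor that draws monocytes out of the blood, or with other genes of recruited macrophages and dendritic cells. They were chosen by their own counts. A barcode was taken where H2-Eb1 or H2-Ab1 reached 2 UMIs (unique molecular identifiers, each standing for 1 captured transcript), where at least 2 of the 6 genes Ccr2, Lyz1, Retnla, Tnip3, Mmp12 and Mmp13 were detected, where at most 1 of the 4 residency genes Folr2, Lyve1, Cd163 and F13a1 was detected, where Cd79a, Cd3e, Pdgfra and Pecam1 were at 0, and where Myh11 was at 2 UMIs or fewer. This gave 280 members among the 68662 barcodes kept after cell filtering, which is 0.4078%, with 1270749 UMIs in all.

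Mice with the genotype Slc38a2deltaEC, in which the amino acid transporter gene Slc38a2 is deleted in endothelial cells, gave 4 libraries, and mice with the genotype Slc38a2flox/flox, which carry the floxed alleles, gave 3. Every mouse ate a high-salt diet for 3 weeks, so both groups share the diet and no library shows the aorta without it. Single cells were captured with the BD Rhapsody system, in which barcoded beads and cells meet in microwells. The sources used here do not give age, sex, strain, the Cre driver or the number of animals behind a library, so that p-values measure the spread between libraries only. The labels name goblet cells as the cell type of every sample, and the genes of the members go against that name.

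Circulating monocytes that express Ccr2 enter tissues and turn into macrophages or into cells with dendritic features, and many of them display MHC class II, the molecule that presents peptides to helper T cells. Resident macrophages of the artery wall, by contrast, are known for Lyve1, Folr2 and Cd163, and maintain themselves largely without Ccr2. Macrophages of both kinds release chemokines and matrix proteases, and conventional dendritic cells, marked by Flt3, carry antigen to lymph nodes.

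The knockout libraries held 46, 30, 20 and 82 members (178 in all), and the flox control libraries 33, 56 and 13 (102 in all). Median UMIs per member were 4555, 3659.5, 6039 and 3706.5 in the knockout libraries, against 3500, 4236 and 2304 in the flox controls, so depth overlapped between the groups. The following 3 libraries stand apart in ways that touch the results. Flox control 3 had only 13 members and was left out of the gene-by-gene fit, which asked for at least 20, and its value is printed beside the others wherever levels per library are given. In knockout library 4 the 4 summed erythroid markers made up 10460 CPM of the members' UMIs (CPM, a gene's UMIs scaled to a total of 1000000 UMIs for each library's cells), against 0 to 153.7 CPM in the members of the other libraries, and 13010 CPM over all its kept barcodes. In flox control 1 the members carried 2182 CPM of summed fibroblast markers and 1022 CPM of summed smooth muscle markers, against 230.5 to 1687 CPM and 86.35 to 335.9 CPM in the members of the other libraries. Libraries shared 68 to 218 barcodes per pair, and 20 members had a barcode that also occurred in another library, but no barcode was a member in more than 1 library.

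The myeloid label was checked on 11 general myeloid genes, among them Ptprc, Cd68, Tyrobp, Fcer1g and Csf1r. All 11 had UMIs in the members of every library, with 15090 to 22480 CPM in the knockout members and 12530 to 17370 CPM in the flox control members, against 1242 to 2117 CPM and 515.9 to 1372 CPM over all kept barcodes of those libraries. As a set, the members are therefore myeloid by genes the gate did not use. At least 1 of the 11 was detected in 100% of members in every library but flox control 1, where it was 90.91%. In flox control 1, 100% of members had a fibroblast marker UMI and 81.82% a smooth muscle marker UMI. The other libraries had 63.33% to 92.68% and 25.61% to 69.23%. Several lineages that should be missing were low. Summed endothelial markers reached 29.89 CPM at most and mast cell markers 36.53 CPM, both in knockout library 4, against 613.3 and 1424 CPM over all its kept barcodes. Neutrophil markers reached 87.84 CPM in flox control 3 and B cell markers 82.6 CPM in flox control 2. Those values lay above the 15.47 and 24.08 CPM over all kept barcodes there, and the other libraries lay on either side of that level. Cd3d had no UMI in any library. Summed markers of T and NK cells came to 69.75 to 351.3 CPM, with UMIs from 1 of 7 genes in every library but knockout library 4, where 3 of the 7 had UMIs. That gene was Il7r, which is described below among the genes high in the members. Mbp, the myelin basic protein gene, averaged 86.25 ± 45.24 CPM in members and 28.11 ± 6.38 CPM in resident macrophages (SD, n = 7). Scrublet called 2 of the 280 members doublets, both in knockout library 1.

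The name of the group holds in part for the gate's own genes, and these shares describe the choice and are no finding. H2-Ab1 and H2-Eb1, the beta chains of the class II molecules I-A and I-E, were detected in 275 and 272 of the 280 members. Ccr2 itself was detected in 178 members (63.57%), and the remaining members entered through other genes. Tnip3, a brake on NF-kB signalling, was detected in 177 members, Retnla, a secreted protein of alternatively activated macrophages, in 151, and Lyz1, a lysozyme, in 131. The metalloproteases Mmp12, which cuts elastin, and Mmp13, which cuts fibrillar collagen, were detected in 66 and 56. Among the 4 residency genes, F13a1, a clotting factor chain made by monocytes and macrophages, was present in 122 members, whereas Cd163, Lyve1 and Folr2 were present in 9, 5 and 3.

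Detection in cells that should lack these genes was low for several of them. In barcodes of the fibroblast gate, Ccr2 was detected in 0.0154% to 0.316%, Tnip3 in 0.0845% to 0.3127% and Mmp12 in 0.02801% to 0.2257%, at median depths of 3738 to 6319.5 UMIs. H2-Eb1 and Retnla reached 11.8% and 5.01% of fibroblast barcodes in knockout library 4, which also had the most members. They stood at 6.635% and 4.147% in flox control 1, and at 1.474% and 1.176% or less in the other libraries. The near copy Lyz2 shares 10.5% of the 60-base stretches of Lyz1 transcripts, so part of the Lyz1 count may have been assigned by the counter between the copies.

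Near the edges of the gate, 14 members had exactly 2 UMIs of the higher class II gene, 25 had 3 or 4, and 241 had 5 or more, whereas 19 barcodes that met every other condition had exactly 1. Of the 6 genes, exactly 2 were detected in 145 members, 3 in 81, and 4 or more in 54. Outside, 179 barcodes had only 1 of the 6 and 248 had none. The residency genes kept out 40 barcodes with exactly 2 of them and 226 with 3 or 4.

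**Figure D1:**
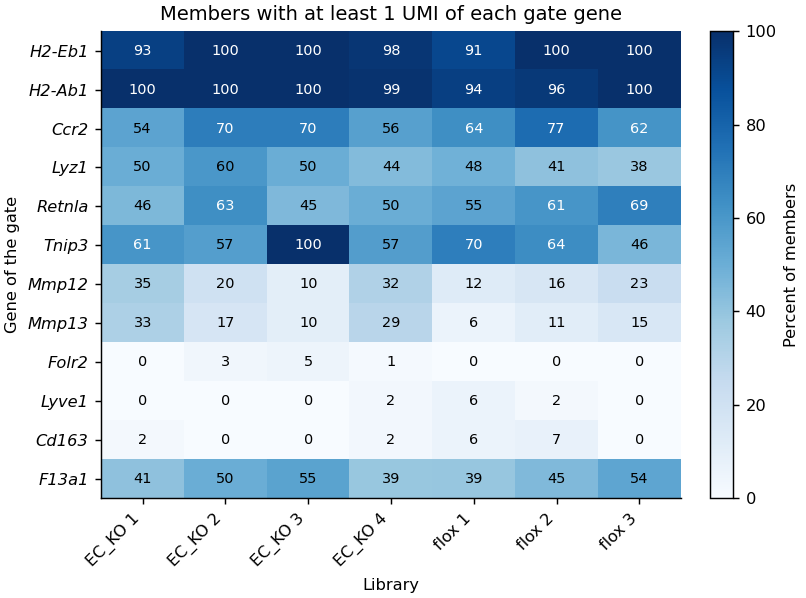
Percent of members with at least 1 UMI of each gene of the gate, by library, with the knockout libraries at the left and the flox controls at the right. H2-Eb1 and H2-Ab1 stand at 90.91% or more in every library, Mmp12 and Mmp13 range from 6.061% to 34.78%, and Folr2, Lyve1 and Cd163 stay at 7.143% or below.

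Class II antigen presentation genes were abundant, which the gate fixes for H2-Eb1 and H2-Ab1 and not directly for the others. H2-Aa, the alpha chain of I-A, was measured at 5959, 11270, 12380 and 11730 CPM in knockout members, against 11290, 9255 and 8191 CPM in flox control members. Knockout library 1 was the lowest of the 7, and the groups overlapped. Over all 7 libraries H2-Aa averaged 10010 ± 2313 CPM in members and 2938 ± 1239 CPM in the resident macrophage gate (SD, n = 7 libraries). Cd74, the invariant chain that escorts class II molecules, averaged 13370 ± 4946 CPM in members and 4562 ± 2683 CPM in resident macrophages. H2-DMb2, a chain of the peptide editor H2-DM and a close paralog of H2-DMb1, between which reads could be split, was at 146.9 ± 74.34 CPM in members and 1.779 ± 0.9796 CPM in resident macrophages, a log2 ratio of 4.33 ± 0.91 on the log2(CPM + 5) scale.

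The promoters of H2-Eb1 and H2-Aa are shown because class II is what these cells are named for, with every CCAAT box (letters CCAAT, searched on both strands, so that ATTGG is the same box on the other strand) in capitals. The sequences are RefSeq's for build GRCm38.p6, read 5′ to 3′ on the strand of the gene, and end at the base before the start site. A CCAAT box is the Y box that class II promoters are known for, where the factor NF-Y binds. H2-Eb1 held 2 matches and H2-Aa 1, and 24.5% of all 32851 promoter windows of the same 150 bases held at least 1.
H2-Eb1, chr17:34305717-34305866, plus strand: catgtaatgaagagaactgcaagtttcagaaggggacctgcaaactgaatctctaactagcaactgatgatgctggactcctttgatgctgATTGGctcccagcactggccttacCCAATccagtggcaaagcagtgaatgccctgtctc
H2-Aa, chr17:34287824-34287973, minus strand: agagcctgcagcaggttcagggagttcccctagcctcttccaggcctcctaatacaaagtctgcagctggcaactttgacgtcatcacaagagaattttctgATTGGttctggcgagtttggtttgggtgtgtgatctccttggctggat

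Outside the gate's genes, the transcript that most set the members apart from all other kept barcodes was Il1b, the inflammatory cytokine interleukin 1 beta. It was measured at 3197, 1829, 3181 and 2102 CPM in knockout members, against 2597, 2650 and 2547 CPM in flox control members. The groups overlapped fully. Il1b averaged 2586 ± 506.5 CPM in members and 82.11 ± 24.15 CPM in resident macrophages (SD, n = 7). No test is given for such ratios, since the gate chose the cells by their counts.

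The following genes are among the 20 with the largest ratio of members to resident macrophages, so the choice fixed their direction. Cytip, which regulates integrins of leukocytes, averaged 742.2 ± 312.6 CPM in members and 9.813 ± 3.325 CPM in resident macrophages, and Itgax, the integrin CD11c of dendritic cells and recruited macrophages, 218.3 ± 88.98 and 2.904 ± 3.464 CPM. Adam8, a membrane protease of leukocytes, averaged 503.6 ± 125.5 CPM in members and 19.47 ± 7.296 CPM in resident macrophages. Dcstamp, needed for the fusion of macrophages and dendritic cells, averaged 208.2 ± 75.56 CPM in members and 1.783 ± 1.895 CPM in resident macrophages. Cd226, an adhesion receptor of lymphocytes and some macrophages, averaged 173.5 ± 66.55 CPM in members and 9.666 ± 8.624 CPM in resident macrophages.

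Il7r, Lpl, Fn1 and Ear2 were named by the same ratio, Csf2rb by the ratio to all other kept barcodes and Csf1r by its level. Il7r, the receptor chain for interleukin 7 and TSLP, averaged 188.3 ± 101.6 CPM in members and 2.014 ± 1.891 CPM in resident macrophages, and Csf2rb, the shared beta chain of the GM-CSF receptor, 494.6 ± 127.6 and 66.83 ± 15.01 CPM. Csf1r, the receptor for the macrophage growth factor CSF1, ran the other way, with 497.3 ± 140.9 CPM in members and 1567 ± 128 CPM in resident macrophages. The resident macrophage gate asks for C1qa, Adgre1 or Csf1r, and the gate of the members does not. The choice of cells thus favoured this direction for Csf1r. Among secreted proteins, Lpl, which hydrolyses lipoprotein triglycerides, averaged 2007 ± 803.4 CPM in members and 105.5 ± 36.91 CPM in resident macrophages, Fn1, fibronectin, 2444 ± 912.5 and 151 ± 55.68 CPM, and Ear2, an eosinophil-type ribonuclease also made by macrophages, 353.9 ± 176 and 7.624 ± 12.43 CPM. Ear2 belongs to a family of near copies, so its counts could be shared among them.

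Some genes of resident macrophages were scarce in members and others were not. The 10 resident macrophage markers summed to 1141 to 1381 CPM in knockout members and 1294 to 1375 CPM in flox control members, of which Mrc1, the mannose receptor, averaged 577.5 ± 126 CPM, against 2583 ± 485.3 CPM in resident macrophages. The next 4 genes are among the 10 with the lowest ratio of members to resident macrophages, so the choice fixed their direction. Cbr2, a carbonyl reductase, averaged 21.57 ± 14.47 CPM in members and 1441 ± 334.7 CPM in resident macrophages, and Vsig4, the complement receptor CRIg, 0.5969 ± 1.579 and 110 ± 35.29 CPM. The lectin Cd209f and the chemokine Ccl8 had no UMI in any member, where 3 counts over all members would be 2.36 CPM, against 329.7 ± 159.2 and 117.3 ± 47.1 CPM in resident macrophages. C1qb and C1qc, chains of the complement protein C1q that macrophages make, were present in members at 912.6 ± 338.3 and 577.1 ± 237.9 CPM, below the 2839 ± 581.5 and 3366 ± 656.2 CPM of resident macrophages. C1qa, the gene of a further C1q chain, is among the genes that admit a barcode to the resident macrophage gate. The direction of C1qb and C1qc may thus be tied to the choice of cells, which was not tested.

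**Figure D2:**
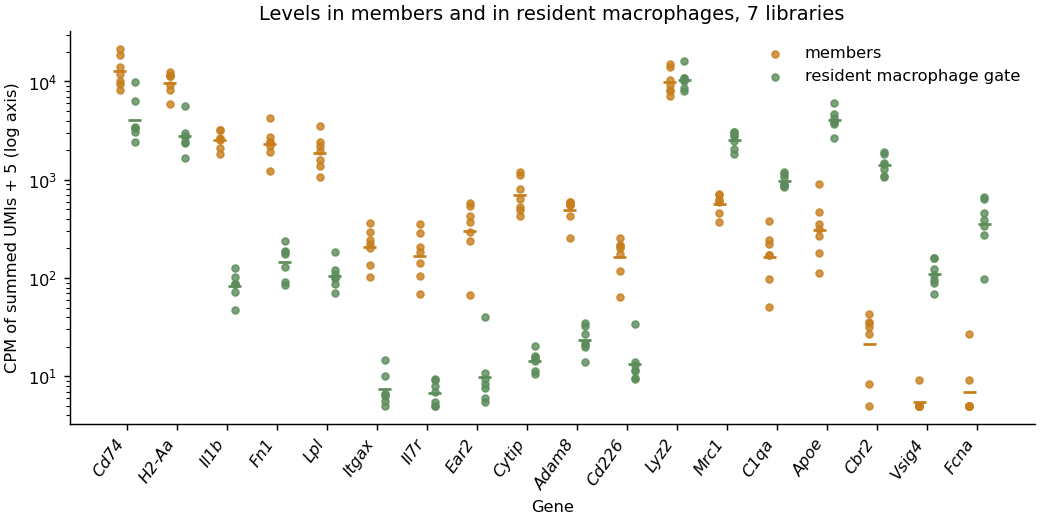
CPM plus 5 on a log axis for 18 genes in members (orange) and in the resident macrophage gate (green), 1 point per library and a bar at the geometric mean of the 7 libraries. Il1b, Cytip, Itgax, Il7r and Ear2 lie higher in members in every library, Cbr2, Vsig4 and Fcna lie lower, and Lyz2 overlaps (10290 ± 3093 CPM in members, 10690 ± 2652 CPM in resident macrophages).

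The members were not 1 uniform population. The 6 optional genes formed 30 patterns, and some pairs went together while others seldom met. Of the 56 members with Mmp13, 49 also had Mmp12 (87.5%), and of the 131 members with Lyz1, 113 also had Retnla (86.26%), whereas only 4 members had both Mmp13 and Lyz1. A set of 3 patterns that do not overlap was formed after these values were seen, so their genes are described with no test. One held Lyz1 and Retnla without either metalloprotease (101 members, 36.071%), another held Mmp12 or Mmp13 (73 members, 26.071%), the last held Ccr2 and Tnip3 but none of Lyz1, Retnla, Mmp12 and Mmp13 (54 members, 19.286%), and 52 members fell outside them. Their median depths were 2904, 4557 and 5241 UMIs, so the pattern with Lyz1 and Retnla was the shallowest.

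Members with Lyz1 and Retnla held the highest levels of some genes of alternatively activated macrophages and not of others. Lyz2 was not listed as a gene of alternative activation. It is a near copy of Lyz1, which this pattern requires and the pattern with Ccr2 and Tnip3 only excludes. Its count may thus be tied to the choice, which was not tested. Lyz2 averaged 15580 ± 3082 CPM in this pattern, above both other patterns in 7 of 7 libraries. The other means were 5855 ± 3574 CPM with Mmp12 or Mmp13 and 7013 ± 4301 CPM with Ccr2 and Tnip3 only. Fn1 averaged 4177 ± 1583, 2349 ± 1921 and 601.2 ± 521.8 CPM in the same order, and was highest with Lyz1 and Retnla in 6 of 7 libraries. Ear2 (662.6 ± 317.2, 87.73 ± 85.46 and 317.2 ± 606.4 CPM), the chemokine Ccl6 (3031 ± 1034, 1406 ± 1024 and 549.9 ± 242.9 CPM) and Cd226 (229.5 ± 127, 68.36 ± 79.27 and 138.2 ± 131.9 CPM) were also highest there in 6 of 7 libraries. Ccl24, a chemokine for eosinophils, was highest there in 7 of 7, though its level ran between 9.62 and 4618 CPM over the libraries, the highest from 91 UMIs in 11.11% of the pattern's members in flox control 1. Mgl2, another gene of alternative activation, was lower there, at 473.5 ± 260.6 CPM, against 509.6 ± 448.2 CPM with Mmp12 or Mmp13 and 1140 ± 902 CPM with Ccr2 and Tnip3 only, and was highest in the last of these in 5 of 7 libraries. F13a1, a residency gene of the gate, averaged 800.9 ± 306.2, 191.7 ± 234.8 and 237.6 ± 263.7 CPM.

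Members with Mmp12 or Mmp13 held the highest levels of several chemokines, proteases and cytokines, though not of Il1b. Ccl4, a chemokine that attracts immune cells, averaged 7571 ± 5231 CPM with Mmp12 or Mmp13, against 1026 ± 864.2 CPM with Lyz1 and Retnla and 2526 ± 1081 CPM with Ccr2 and Tnip3 only, and was highest there in 5 of 7 libraries. Tnf, tumor necrosis factor, averaged 2262 ± 1272, 504.8 ± 391.3 and 626.1 ± 414.2 CPM in that order, and was highest there in 6 of 7. Plau, the urokinase that activates plasmin, averaged 1924 ± 1675, 154.8 ± 111.8 and 83.09 ± 61.34 CPM, and Itgax 410.2 ± 205, 100.8 ± 74.58 and 158.2 ± 106.3 CPM, each highest there in 7 of 7 libraries. Mmp14, a membrane protease that activates other metalloproteases, averaged 115.5 ± 49.77 CPM with Mmp12 or Mmp13 and 19.85 ± 37.07 CPM with Lyz1 and Retnla, and had no UMI with Ccr2 and Tnip3 only. Gpnmb and Trem2, genes of lipid-laden macrophages, were low but highest there in 6 of 7 libraries, at 77.45 ± 66.07 and 60.81 ± 49.13 CPM. Apoe, listed with them, was highest there in 5. Lpl, also listed with them and more abundant, averaged 2991 ± 3289 CPM with Mmp12 or Mmp13 and 2878 ± 1748 CPM with Lyz1 and Retnla. It was highest with Lyz1 and Retnla in 5 of 7 libraries and with Mmp12 or Mmp13 in 2. At least 2 of the 3 C1q genes were detected in 59 of these 73 members (80.822%), in 35 of the 101 with Lyz1 and Retnla (34.653%) and in 12 of the 54 with Ccr2 and Tnip3 only (22.222%), and in 0% to 1.5364% of fibroblast barcodes.

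Mmp12 and Mmp13 lie on chromosome 9 in the same direction, and their promoters are shown because the pair was detected together. Matches to the AP-1 motif (letters TGANTCA, which reads the same on both strands) are in capitals. Mmp13 held 1 site, 28 bases before its start. RefSeq lists 2 starts of Mmp12, and the window of the downstream one held 1 site, 37 bases before the start, whereas the window of the upstream one held none. Only the downstream window of Mmp12 is printed, and it lies inside the gene as GENCODE places it. Of all 32851 windows of 150 bases, 4.24% held a match.
Mmp12, chr9:7347224-7347373, plus strand: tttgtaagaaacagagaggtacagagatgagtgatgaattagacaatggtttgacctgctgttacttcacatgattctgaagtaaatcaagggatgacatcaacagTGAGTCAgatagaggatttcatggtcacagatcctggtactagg
Mmp13, chr9:7272364-7272513, plus strand: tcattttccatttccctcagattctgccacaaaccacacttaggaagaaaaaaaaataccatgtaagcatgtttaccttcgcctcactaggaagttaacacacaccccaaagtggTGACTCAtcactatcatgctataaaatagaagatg

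Members with Ccr2 and Tnip3 only held the highest levels of several dendritic cell genes, and also of Plac8, a gene of monocytes and other leukocytes. Plac8 averaged 509.1 ± 567.3 CPM there, against 45.35 ± 120 CPM with Lyz1 and Retnla and 106.9 ± 118.5 CPM with Mmp12 or Mmp13, and was highest there in 5 of 7 libraries. Cd209a, a lectin of monocyte-derived and type 2 dendritic cells, averaged 898.3 ± 554.8 CPM with Ccr2 and Tnip3 only, against 7.232 ± 9.556 CPM with Lyz1 and Retnla and 60.02 ± 91.15 CPM with Mmp12 or Mmp13. Flt3, the growth factor receptor of dendritic cells, averaged 99.94 ± 75.82 CPM and had no UMI in either other pattern. Both were highest there in 6 of 7 libraries, the exception being flox control 3, which had 1 member of this pattern. Ccl17, a chemokine of mature dendritic cells, likewise had no UMI in the other patterns and was found in 3 of 7 libraries. Ccr7, which guides dendritic cells to lymph nodes, was highest there in 5. Other genes listed for dendritic cells went the other way. Cadm1 averaged 389.5 ± 364 CPM with Mmp12 or Mmp13 and 114.9 ± 212.4 CPM with Ccr2 and Tnip3 only. It was highest with Mmp12 or Mmp13 in 6 of 7 libraries, and Itgax, given above, in 7 of 7. Il1b (4692 ± 2063 CPM, against 1050 ± 610.4 CPM with Lyz1 and Retnla and 2324 ± 1265 CPM with Mmp12 or Mmp13) and H2-Aa (13490 ± 1536 CPM, against 8427 ± 2457 and 9005 ± 2615 CPM) were highest in this pattern in 7 of 7 libraries. At least 2 of 9 dendritic cell genes were detected in 25 of its 54 members (46.296%), in 4 of the 73 with Mmp12 or Mmp13 and in 1 of the 101 with Lyz1 and Retnla, against 0.22568% to 0.99317% of fibroblast barcodes. Only 3 of the 280 members met both the C1q and the dendritic cell rule.

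**Figure D3:**
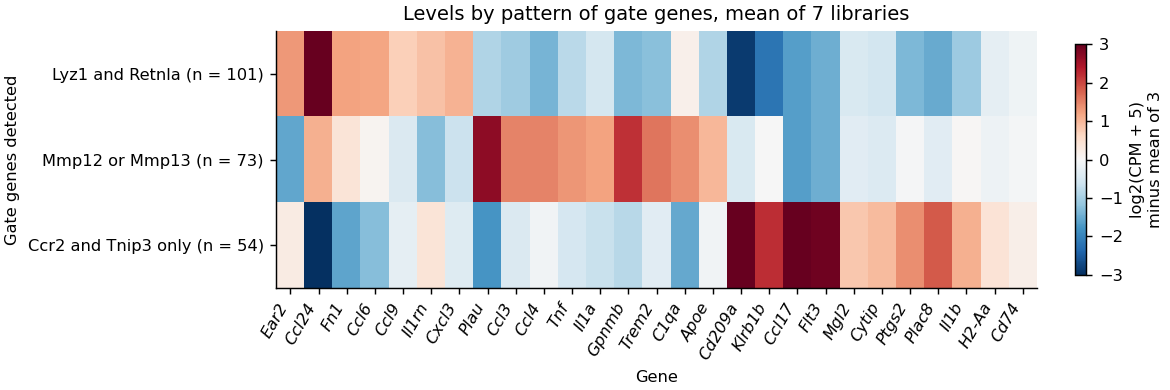
Levels of 27 genes in 3 patterns of gate genes, as log2(CPM + 5) of the mean over 7 libraries minus the mean of the 3 patterns, with red for higher and blue for lower. Ear2, Ccl24 and Fn1 are highest with Lyz1 and Retnla, Plau, Ccl3, Ccl4 and Tnf with Mmp12 or Mmp13, and Cd209a, Flt3 and Ccl17 with Ccr2 and Tnip3 only, while Cd74 differs little.

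The share of members among kept barcodes did not differ between the genotypes beyond the spread of the libraries. It was 0.45414%, 0.29586%, 0.1626% and 1.1244% in the knockout libraries, against 0.27893%, 0.48925% and 0.23538% in the flox controls. Knockout library 4 was the highest of all and knockout library 3 the lowest, so the flox controls lay within the knockout range. The means were 0.509% ± 0.427 in knockout libraries (SD, n = 4) and 0.335% ± 0.136 in flox controls (SD, n = 3), a difference of 0.175 percentage points with an exact two-sided permutation p of 0.714 over 35 splits, of which the smallest possible p is 0.0286. Without knockout library 4, the library rich in erythroid transcripts, the difference was -0.0303 percentage points. As a share of members plus resident macrophages, the values were 13.372%, 5.0167%, 3.1447% and 14.462% in knockout libraries, against 6.7901%, 7.3012% and 10.156% in flox controls, with an exact permutation p of 0.8.

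**Figure D4:**
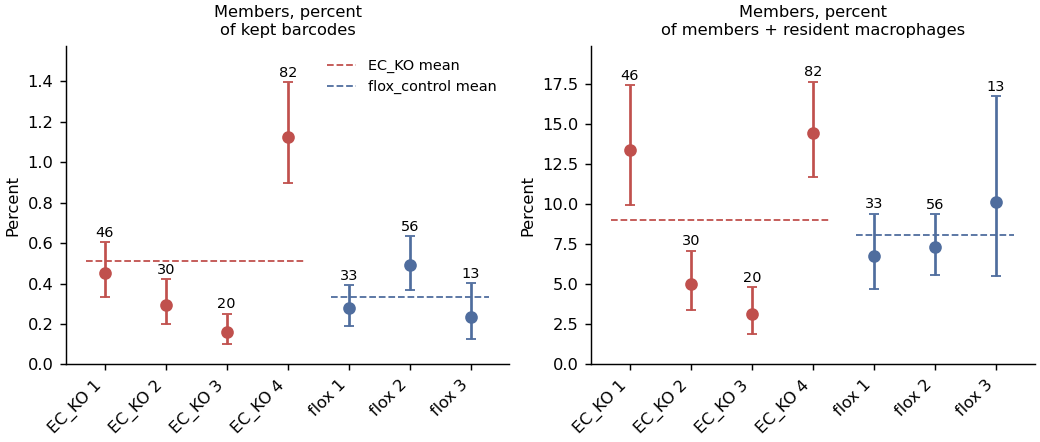
Members as a percent of kept barcodes (left) and of members plus resident macrophages (right), 1 point per library with its exact 95% binomial interval and the number of members above it, and the group mean as a dashed line. The knockout libraries (red) span 0.1626% to 1.1244% of kept barcodes and enclose the flox controls (blue).

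Within the members, subsets by detected genes were compared between the genotypes, and none of the 3 described here passed the test. Members with at least 2 C1q genes made up 45.652%, 60%, 30% and 52.439% in knockout libraries, against 21.212%, 35.714% and 38.462% in flox controls. The highest 3 values were knockout values, and knockout library 3 lay among the controls. The means were 47% ± 12.8 in knockout members (SD, n = 4) and 31.8% ± 9.27 in flox control members (SD, n = 3), a difference of 15.2 percentage points with an exact permutation p of 0.171 (0.686 adjusted over the 4 subsets tested). When barcodes were thinned to 1000 UMIs each and the gate was applied anew, which took 219 barcodes that are not all members, the C1q means were 47.3% ± 7.56 in knockout libraries and 30.6% ± 10.5 in flox controls, with an exact permutation p of 0.0857. Members with at least 2 dendritic cell genes made up 8.6957%, 10%, 30% and 4.878% in knockout libraries, against 24.242%, 17.857% and 7.6923% in flox controls, and overlapped fully (exact permutation p of 0.686). At least 2 cycling genes were detected in 5.93% ± 3.28 of knockout members and 5.77% ± 7.53 of flox control members (SD, n = 4 and 3, exact permutation p of 1).

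The patterns of gate genes are given per library as a description, since several genes named below differed in level between the patterns. Their part in the genotype differences was not tested. Mmp12 or Mmp13 was detected in 36.957%, 23.333%, 20% and 32.927% of knockout members, against 12.121%, 19.643% and 23.077% of flox control members. Ccr2 and Tnip3 without the other 4 genes were found in 15.217%, 13.333%, 30% and 13.415% of knockout members, against 27.273%, 28.571% and 7.6923% of flox control members. In the 2 flox controls that entered the fit, the metalloprotease pattern was thus rarer than in every knockout library, and in flox control 3 it was not. The gap was narrow between flox control 2 (11 of 56 members) and knockout library 3 (4 of 20 members).

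Gene by gene, UMI counts were summed over the members of each library, and 4 knockout libraries were compared with flox controls 1 and 2 by edgeR's quasi-likelihood test. Of 3708 genes tested, 0 passed an adjusted p of 0.05 (0%), 254 had an unadjusted p under 0.05 (148 higher and 106 lower in knockout members), and the smallest adjusted p was 0.2992. DESeq2 on the same sums called 12 genes, 10 of them higher in knockout members. It gave no adjusted p for 1367 of the 3708 genes, so its adjustment ran over fewer genes than edgeR's. In data simulated at the same depth over 3458 genes edgeR called 83% of 94 genes changed 4-fold and 11.4% of 79 genes changed 2-fold. It also called 8 of 3285 unchanged genes. The simulated counts were drawn for each gene on its own, without shifts shared by many genes of a library, so these shares need not hold for the real data. In the libraries of the fit, the groups did not overlap for 222 genes higher and 443 genes lower in knockout members. A lack of overlap in those libraries was thus common and does not by itself set a gene apart. For single genes below, overlap is given over all 7 libraries, for which the same count over all genes was not made. The genes named next are the 10 with the smallest p among genes of at least 5 log2 CPM, and none of them passes in edgeR.

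Slc38a2, the gene deleted in the endothelium, is given first. It was measured at 208.9, 291.2, 215.1 and 172.7 CPM in knockout members, against 322.7, 223.7 and 329.4 CPM in flox control members. The ranges overlapped, and the log2 fold change was -0.21 (SE 0.30, edgeR adjusted p 0.9032). The members are not endothelial cells, so the value does not check the genotype labels.

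Cxcl1, a chemokine that attracts neutrophils through the receptor Cxcr2, had the smallest p of all genes in edgeR, whereas in DESeq2 Ccl4 had a smaller one. It was measured at 656, 671.9, 1191 and 800.4 CPM in knockout members, against 284.3, 244.4 and 175.7 CPM in flox control members. Every knockout library lay above every flox control, flox control 3 included, which the fit did not use. The log2 fold change was 1.74 (SE 0.31, edgeR adjusted p 0.2992, and 0.000383 in DESeq2), and with all 7 libraries it was 1.8 (SE 0.279, edgeR adjusted p 0.0532). Cxcl2, another ligand of that receptor, was measured at 6644, 5614, 5631 and 7018 CPM in knockout members, against 3028, 4216 and 4875 CPM in flox control members, again without overlap, with a log2 fold change of 0.87 (SE 0.22, edgeR adjusted p 0.4707). Cxcl3, a further ligand, was at 158.8, 350.9, 507.1 and 76.39 CPM in knockout members, against 7.684, 51.63 and 175.7 CPM in flox control members, where flox control 3 lay inside the knockout range.

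The 3 genes lie on chromosome 5 of build GRCm38, and their promoters are shown because Cxcl1 stood first in the genotype comparison and Cxcl3 in the comparison with resident macrophages below. Matches to the NF-kB motif (GGGA, any base, then TTTCC, searched on both strands) are in capitals, and each window holds 1, at 61, 87 and 63 bases before the RefSeq start of Cxcl1, Cxcl2 and Cxcl3. Of all 32851 windows of 150 bases, 0.228% held such a match. The last 4 bases of the Cxcl1 window and the last 28 of the Cxcl2 window, which the GENCODE annotation places in an exon, are left off. Cxcl2 and Cxcl3 transcripts share 5.32% of the 60-base stretches of Cxcl2, so a part of those counts could be split between them, whereas Cxcl1 shares none with either.
Cxcl1, chr5:90891095-90891240, plus strand: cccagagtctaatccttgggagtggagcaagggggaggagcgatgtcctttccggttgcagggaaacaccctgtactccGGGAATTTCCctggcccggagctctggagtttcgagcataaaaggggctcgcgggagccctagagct
Cxcl2, chr5:90903749-90903870, plus strand: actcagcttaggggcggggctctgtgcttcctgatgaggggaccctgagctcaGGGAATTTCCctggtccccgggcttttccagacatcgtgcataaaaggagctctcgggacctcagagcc
Cxcl3, chr5:90785951-90786100, plus strand: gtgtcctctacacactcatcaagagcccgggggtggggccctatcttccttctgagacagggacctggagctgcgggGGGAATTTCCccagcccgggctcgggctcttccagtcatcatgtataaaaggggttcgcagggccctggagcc

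Acod1, the enzyme that makes itaconate in activated macrophages, was measured at 459.6, 164.2, 307.3 and 169.4 CPM in knockout members, against 61.47, 34.42 and 43.92 CPM in flox control members. All 4 knockout values lay above all 3 flox control values. The log2 fold change was 2.69 (SE 0.52, edgeR adjusted p 0.2992, and 0.00188 in DESeq2). Fth1, the heavy chain of the iron store ferritin, was measured at 5390, 5883, 4587 and 4367 CPM in knockout members, against 2682, 3074 and 3777 CPM in flox control members, without overlap, with a log2 fold change of 0.90 (SE 0.21, edgeR adjusted p 0.4707). Slc3a2, the heavy chain that carries amino acid transporters such as Slc7a5 to the membrane, was at 585, 798.8, 591.6 and 614.4 CPM in knockout members, against 376.5, 299.4 and 483.1 CPM in flox control members, also without overlap (log2 fold change 1.03, SE 0.26, edgeR adjusted p 0.4707).

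Ccl4 and the protease Plau were among the 10 genes, but flox control 3, which the fit left out, lay within the knockout range. Ccl4 was measured at 6184, 2904, 2451 and 4842 CPM in knockout members, against 1191, 1418 and 2899 CPM in flox control members. Flox control 3 lay between knockout libraries 2 and 3. The log2 fold change was 1.74 (SE 0.35, edgeR adjusted p 0.2992) without that library and 1.23 (SE 0.373, edgeR adjusted p 0.513) with it. Plau was measured at 1534, 567.4, 499.4 and 498.2 CPM in knockout members, against 238.2, 230.6 and 680.7 CPM in flox control members, where flox control 3 exceeded 3 of the 4 knockout libraries. Its log2 fold change was 1.82 (SE 0.46, edgeR adjusted p 0.4707) without flox control 3 and 1.24 with it.

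The 3 of the 10 genes with lower values in knockout members were Cd209a, Klrb1b and Cmss1. Cd209a was measured at 154.6, 179.2, 345.7 and 106.3 CPM in knockout members, against 614.7, 664.3 and 21.96 CPM in flox control members. Flox controls 1 and 2 lay above every knockout library and flox control 3 below every one. The log2 fold change was -1.67 (SE 0.36, edgeR adjusted p 0.2992, and 0.0217 in DESeq2), and it was -1.3 with all 7 libraries (edgeR adjusted p 0.642) and -0.59 with the replicate number as a block (edgeR adjusted p 0.992). Klrb1b, a lectin-like receptor, was measured at 25.07, 14.93, 38.41 and 36.53 CPM in knockout members, against 130.6, 127.3 and 0 CPM in flox control members, with the same position of flox control 3 (log2 fold change -2.02, SE 0.42, edgeR adjusted p 0.2992). Cmss1, the homolog of a yeast ribosome assembly factor, was measured at 91.93, 97.05, 15.37 and 96.32 CPM in knockout members, against 345.8, 292.6 and 65.88 CPM in flox control members, where flox control 3 lay within the knockout range. Its log2 fold change of -1.92 (SE 0.41, edgeR adjusted p 0.2992) was close to the -1.93 (SE 0.24, edgeR adjusted p 0.1575) found in resident macrophages.

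**Figure D5:**
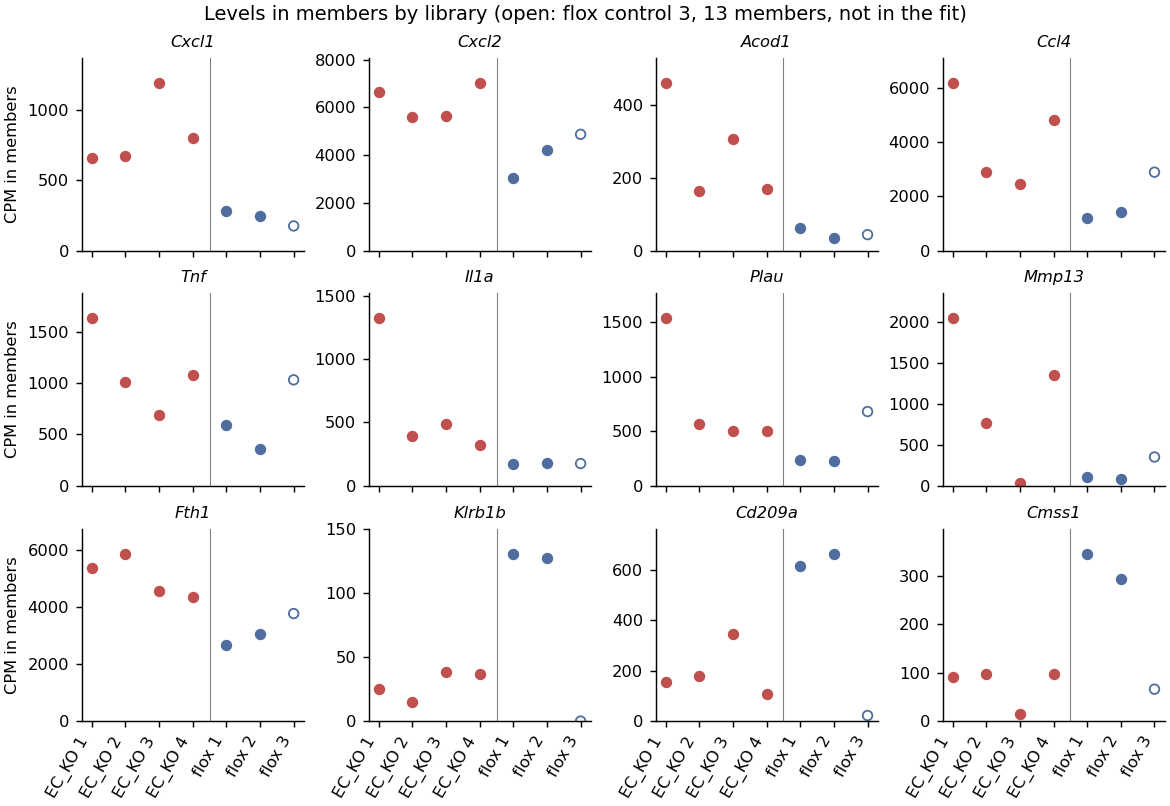
CPM of 12 genes in members, 1 point per library, with the 4 knockout libraries (red) left of the line and the 3 flox controls (blue) right of it, where the open point is flox control 3. For Cxcl1, Cxcl2, Acod1 and Fth1 all knockout points lie above all flox control points, and for Ccl4, Tnf, Plau, Klrb1b and Cd209a the open point lies within or beyond the knockout range.

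Levels with and without Mmp12 or Mmp13 are given as a description only, since both are gate genes and the split was made after the values were seen. Mmp12 or Mmp13 was detected in 17, 7, 4 and 27 knockout members, against 4, 11 and 3 flox control members. In the members with neither, Cxcl1 stood at 749.9, 682.4, 640.7 and 576.2 CPM in knockout members, against 83.15, 239.9 and 77.22 CPM in flox control members. In the members with either, Cxcl1 stood at 480.2, 647.2, 3829 and 1219 CPM in knockout libraries, against 1279, 256.6 and 747.5 CPM in flox controls, and the groups overlapped. Acod1 stood at 499.9, 234.6, 343.5 and 178.5 CPM in knockout members, against 46.19, 47.03 and 51.48 CPM in flox control members, with neither metalloprotease. With either it stood at 384.2, 0, 133.6 and 152.4 CPM in knockout members, against 137, 0 and 0 CPM in flox control members, again with overlap. With neither, Cxcl1 UMIs came from 10, 6, 10 and 14 of those 29, 23, 16 and 55 knockout members, against 7, 10 and 2 of 29, 45 and 10 flox control members. Tnf with neither stood at 525.6, 565.2, 306.4 and 479.4 CPM in knockout members, against 517.4, 315.1 and 540.5 CPM in flox control members, and with either at 3698, 2066, 2538 and 2210 CPM in knockout members, against 959.1, 474.8 and 3887 CPM in flox control members. Its groups overlapped in both sets of members. Plau overlapped in both as well, with neither at 153.8, 85.31, 492.1 and 137.7 CPM in knockout members, against 101.6, 112.9 and 25.74 CPM in flox control members, and with either at 4118, 1693, 534.3 and 1171 CPM in knockout members, against 913.4, 551.8 and 4485 CPM in flox control members. Cd209a belongs to the pattern with Ccr2 and Tnip3 only, whose share per library is given above, and the part of that share in its difference was not tested.

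Gene lists are described by how many of their tested members were higher or lower in knockout members, beside all 3708 genes, of which 1921 were higher and 1787 lower (median log2 fold change 0.02). The lists were chosen with earlier results of these data known, and no gene of any list passed in edgeR. Of 12 matrix proteases and inhibitors, 12 were higher (median 0.60), and without the gate genes Mmp12 and Mmp13, 10 of 10 (median 0.57). Mmp12 was measured at 835.7, 582.3, 291.9 and 1063 CPM in knockout members, against 184.4, 268.5 and 395.3 CPM in flox control members, and Mmp13 at 2039, 768.9, 30.73 and 1348 CPM, against 107.6, 82.6 and 351.3 CPM. Knockout library 3 held the lowest Mmp13 value of the 7, and its Mmp12 value lay below that of flox control 3. Both genes are in the gate, which did not use genotype, and their log2 fold changes were 1.70 (SE 0.44) and 3.60 (SE 1.00), with an edgeR adjusted p of 0.4707 each. Ctsb, the lysosomal protease cathepsin B, was at 2191 ± 402.5 CPM in knockout members (SD, n = 4) and 1275 ± 153 CPM in flox controls 1 and 2 (SD, n = 2), with 2152 CPM in flox control 3.

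Of 16 inflammatory cytokines and inflammasome genes, 14 were higher and 2 lower (median 0.42). Tnf was measured at 1630, 1015, 691.5 and 1083 CPM in knockout members, against 591.7, 357.9 and 1032 CPM in flox control members, and flox control 3 lay within the knockout range. Il1a, interleukin 1 alpha, was measured at 1320, 395.7, 484 and 318.8 CPM in knockout members, against 169.1, 182.4 and 175.7 CPM in flox control members, with no overlap and knockout library 1 far above the rest (log2 fold change 1.92, SE 0.53, edgeR adjusted p 0.4707). Clec4e, the receptor Mincle that senses mycobacterial and fungal glycolipids, averaged 852.8 ± 330.4 CPM in knockout members and 303.8 ± 157.1 CPM in flox controls 1 and 2, with 372 CPM in knockout library 4 and 527 CPM in flox control 3, so the groups overlapped. Il1b had a log2 fold change of 0.06 (SE 0.25). Of 23 chemokines and receptors, 17 were higher and 6 lower (median 0.25), and without the gate gene Ccr2, 17 were higher and 5 lower (median 0.26).

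Of 15 class II genes tested, 8 were higher and 7 lower (median 0.05), and without the gate genes H2-Eb1 and H2-Ab1, 7 were higher and 6 lower (median 0.07). The log2 fold changes of H2-Aa and Cd74 were 0.10 (SE 0.28) and 0.18 (SE 0.34), and that of the gate gene H2-Eb1 was 0.05 (SE 0.26). The NF-kB feedback genes split into 7 higher and 7 lower (median 0.00), and into 7 and 6 (median 0.02) without the gate gene Tnip3. The genes of growth factors and lineage receptors split into 7 higher and 7 lower (median 0.04). Of 9 genes of alternative activation, 5 were higher and 4 lower (median 0.35), and 4 and 4 (median 0.12) without the gate gene Retnla, with Retnla at 9673, 14800, 8228 and 6752 CPM in knockout members, against 8399, 7968 and 9201 CPM in flox control members, and so without a separation. Of 11 genes of lipid-associated macrophages, 11 were higher (median 0.42), among them Lipa, the lysosomal lipase, at 346.8, 552.4, 368.8 and 332.1 CPM in knockout members, against 238.2, 289.1 and 175.7 CPM in flox control members. Of 10 interferon response genes, 9 were higher and 1 lower (median 0.40).

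Genes of stress and of amino acid supply were examined because the deleted gene moves amino acids. Of 9 genes of amino acid transport and the ATF4 response, 3 were higher and 6 lower (median -0.16). Atf4 itself, the factor that answers a shortage of amino acids, was measured at 317.6, 328.5, 345.7 and 388.6 CPM in knockout members, against 537.9, 419.9 and 417.2 CPM in flox control members, with every knockout value under every flox control value, but with a log2 fold change of -0.37 (SE 0.24) and an edgeR adjusted p of 0.7873. Of 6 salt and osmotic response genes, 4 were higher and 2 lower (median 0.17), and of 14 immediate early genes, which tissue digestion is known to raise, 6 were higher and 8 lower (median -0.10).

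All 12 mitochondrially encoded genes tested were higher in knockout members (median 0.55), and the median was 0.23 with all 7 libraries and 0.02 with the replicate number as a block, with mt-Nd2, a subunit of complex I, at 5165, 6219, 5186 and 4504 CPM in knockout members, against 3673, 3566 and 6324 CPM in flox control members (log2 fold change 0.63, and 0.27 with all 7 libraries). Flox control 3 held the highest value of the 7. Over whole libraries, the median share of mitochondrial UMIs per kept barcode was 6.1851%, 5.6852%, 7.0697% and 6.0859% in knockout libraries, against 4.2102%, 4.706% and 7.5093% in flox controls, and its part in the list was not tested. Of 80 ribosomal protein genes, 66 were higher and 14 lower (median 0.18), and of 59 nuclear genes of oxidative phosphorylation, 37 were higher and 22 lower (median 0.19).

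Whether the genotype difference of a gene was larger in members than in resident macrophages of the same libraries was tested as an interaction in edgeR, with the library as a block. Of 3708 genes, 0 passed an adjusted p of 0.05 (0%), 204 had an unadjusted p under 0.05, the smallest adjusted p was 0.5596, and DESeq2 called 0. The 5 genes with the smallest p and at least 5 log2 CPM were Cxcl3 (difference of the log2 fold changes 2.81, SE 0.53), Cxcl1 (1.61), Mgl2 (-1.41), Scaf8 (2.03) and Clec4e (1.54). Cxcl1 was measured at 285.5, 611.1, 1271 and 536.4 CPM in knockout resident macrophages, against 595.9, 577.2 and 2088 CPM in flox control resident macrophages, so its groups overlapped there, in contrast to the members. Mgl2, a lectin of macrophages and type 2 dendritic cells, averaged 585.1 ± 233 CPM in knockout members (SD, n = 4) and 1285 ± 328.9 CPM in flox controls 1 and 2 (SD, n = 2), with 549 CPM in flox control 3. For Scaf8, an RNA-binding protein of transcription termination, flox control 3 exceeded every knockout library (79.39, 97.05, 76.83 and 56.46 CPM in knockout members, against 23.05, 20.65 and 109.8 CPM in flox control members).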

How the data were processed

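Each of the 7 deposited matrices holds UMI counts per gene and barcode, with 31253 genes and no normalization, per the file headers and values, and every deposited barcode had at least 500 UMIs. The submitters' processing notes name the tools CASAVA 1.8, Seurat and STARsolo 2.7.10a and the build mm10. Their roles and the gene annotation are not stated in what was used here. Per the labels' protocols, tissue was digested enzymatically and stained for viability before capture.

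Barcodes with at least 200 genes and at most 25% mitochondrial UMIs were kept (68662 of 76359). Doublets were called with Scrublet in scanpy 1.11.5 (expected rate 0.06) and kept in the main analysis. Members were chosen by the marker gate. The members, gene lists and named genes were chosen with earlier results of these data known. Resident macrophages were kept barcodes with at least 2 of the 4 residency genes and 1 of C1qa, Adgre1 and Csf1r, with the same exclusions as members. A subset asks for 2 detected genes of its list. Of the 4 subsets tested, 1 is not reported here, nor is a comparison with another gated cell set. CPM are the UMIs of a gene scaled to 1000000 UMIs summed over the chosen cells of a library. Counting intervals are exact (95%, Clopper-Pearson) and cover counting error only.

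Summed counts were tested with edgeR 4.0.16 in R 4.3.3 (filterByExpr, TMM, quasi-likelihood, Benjamini-Hochberg over all genes, threshold 0.05), with DESeq2 1.42.0 as an alternative. A fit was checked on simulated counts with 200 changed genes before the filter on low counts. Positive log2 fold changes mean higher in knockout members. For shares, an exact permutation test (two-sided) enumerated all 35 assignments. Named by rule were the gate's genes, the 20 with the largest ratio of members to other barcodes and to resident macrophages and the 10 with the smallest, the 10 genes of smallest p for genotype and the 5 for the interaction, Slc38a2, and up to 4 of smallest p and 6 of highest level in each list, of which some are printed. The C1q genes and the genes of the 3 patterns were chosen after their values were seen, as were the split by Mmp12 and Mmp13, the fits with all 7 libraries, and their block. Promoter windows and starts are RefSeq's, and gene positions are GENCODE vM21. Alternatives were leaving out each library, removing doublets, stricter and altered gates, a stricter cell filter, thinning to 1000 UMIs, other denominators, scalings and filters.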

Additional observations from a re-analysis of the deposited data

Results flagged for a closer look

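Among the 4 knockout libraries, 1 library lay far from the other 3 in 5 of 23 values examined, where chance flags about 1 in 20 such groups, and the 3 flox controls are too few for the same rule. Knockout library 4 had 10460 CPM of summed erythroid markers in members. Knockout library 1 had 1534 CPM of Plau, and knockout library 2 had 798.8 CPM of Slc3a2, each the highest of its group. Knockout library 3 had 15.37 CPM of Cmss1, the lowest of its group, and in it 30.0% of members had Ccr2 and Tnip3 without Lyz1, Retnla, Mmp12 or Mmp13, the highest share of its group.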

How the results depend on the processing

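The exact permutation tests of the share of members and of the 3 subsets described stayed above 0.05 in every setting with all 7 libraries. With a library left out, no p below 0.05 is possible (smallest 0.05 or 0.0667), so those settings give values only. Thinning applies the gate anew, to other barcodes in part. The share difference ran from -0.0303 to 0.29 percentage points when each library was left out, and turned negative only without knockout library 4. The C1q subset difference, 15.2 percentage points, was 9.87 under the stricter gate and 9.93 to 20.9 without each library, lowest without flox control 1. The dendritic subset difference, -3.2 percentage points, was 0.236 under the stricter gate, 2.29 after thinning to 1000 UMIs, and -8.74 to 0.619 without each library, with the positive value without flox control 1. The cycling subset difference, 0.158, was -1.43 in the gate without Lyz1, -1.47 under the stricter cell filter, -1.33 after thinning, and -2.73 to 4.41 without each library (-0.0881 and -1.20 without knockout libraries 2 and 3, -1.21 and -2.73 without flox controls 1 and 3).

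The count of genes called for genotype, 0 in edgeR, was 12 in DESeq2 and 46 of 13895 with no filter on low counts. It was 0 to 2 when each knockout library was left out, with 2 without knockout library 3 (Mmp13 and Cd209a). Without flox control 1 or 2 the fit holds 1 flox library, so no count is given. With all 7 libraries the count was 0 of 2616. The titles number the libraries 1, 2, 3 and 4 for knockouts and 1, 1 and 3 for flox controls, which links too few pairs to show pairing. With this replicate number as a block, 2 genes were called, Acod1 (log2 fold change 3.26, edgeR adjusted p 0.00519) and Il1a (2.53, 0.00533). Knockout libraries 2 and 4 are alone in their blocks and add nothing to the genotype difference of this fit. That difference rests on knockout library 1 against flox controls 1 and 2, and on knockout library 3 against flox control 3. The interaction count, 0, was 17 of 13895 with no filter and 1 of 2616 with all 7 libraries (Cxcl3). Of 24 genes followed, 23 kept their direction in every setting that gave them a value. That was all 17 settings for 16 genes and 9 to 16 for the other 8. All but Slc38a2 were picked for a small p in the main fit, over all genes or within a list. The settings largely reuse the same libraries, so this choice favoured a stable direction, and the share over all genes was not counted. Slc38a2 had a log2 fold change of -0.486 to 0.0545 when each library was left out, positive without flox control 1. The medians of the lists of class II, alternative activation, NF-kB feedback, growth factor, salt, amino acid, immediate early and oxidative phosphorylation genes changed sign in at least 1 setting, and those of the other lists in none. The causes were not tested. Depth limits all of this: a library held 13 to 82 members.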
